A study of Mus musculus with 16 samples.

Results

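Myocd, Srf, Mrtfa, Mrtfb, Klf4, Klf5, Tcf21, Gata6, Mef2c and Heyl are transcription regulators that set the phenotype of vascular smooth muscle, and they were picked by their symbols, as 10 of the 29695 genes in the count table. RNA was sequenced from the aorta above the kidneys of male mice in 4 groups of 4 libraries. The first 2 groups were mice lacking the vesicle protein Vamp8 (Vamp8-/-, KO) that received angiotensin II (AngII), a hormone that raises blood pressure, at 1000 ng/kg/min for 5 days, and KO mice that received saline for the same time. The other 2 were C57BL/6 wild-type mice (WT) given the same AngII dose and WT mice given saline. All groups shared an osmotic minipump under the skin between the shoulders, and the submitters had excluded vessels with a hemorrhage or visible disease. The labels give no age and do not say which exons the Vamp8 allele lacks. Each library is labelled as a biological replicate of its group, and p-values for differences between groups are set against the spread between such libraries.

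Serum response factor (Srf) is a DNA-binding protein that recognises the CArG box in the promoters of contractile genes and of genes of immediate response. Which set it drives depends on its partners: myocardin (Myocd), found in smooth and cardiac muscle, and the myocardin-related factors Mrtfa and Mrtfb, which enter the nucleus when monomeric actin is used up. Mef2c and Gata6 take part in muscle and vascular development, Heyl is a target of Notch signalling, and Klf4, Klf5 and Tcf21 are known from smooth muscle cells that leave the contractile state.

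The promoter of Srf itself is shown because it was the only promoter among the matched regulators that held a CArG box, the sequence that Srf binds. RefSeq promoters (GRCm38.p6, 250 bases before each start) had entries for 6 of the 10 regulators, in 11 windows. The CArG pattern is symmetric, so 1 search covered both strands. Its matches, in capitals here, were found in 439 of 27025 genes (1.62%). The Srf window lies at chr17:46556163-46556412 on the minus strand, and its boxes are at 82 to 73 and 62 to 53 bases upstream of the start. A match describes the letters in the window and not a bound site.
Srf: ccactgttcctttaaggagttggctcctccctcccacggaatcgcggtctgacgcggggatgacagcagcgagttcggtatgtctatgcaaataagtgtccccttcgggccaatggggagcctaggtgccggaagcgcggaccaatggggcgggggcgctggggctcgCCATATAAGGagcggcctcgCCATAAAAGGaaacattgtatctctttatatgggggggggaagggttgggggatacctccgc

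Among 20 contractile genes known as Srf targets, 17 had a promoter entry and 3 held a box (Myl9, Vcl and Ldb3, 17.6%). Among 15 cytoskeletal and immediate early targets, 9 had an entry and 2 held a box (Actg1 and Egr2, 22.2%). The stretches around 3 of these boxes are shown for comparison with Srf: the regulatory myosin light chain gene Myl9 at chr2:156775283-156775332 (plus strand), the adhesion protein gene Vcl at chr14:20929151-20929200 (plus strand), and the cytoplasmic actin gene Actg1 at chr11:120348556-120348605 (minus strand).
Myl9: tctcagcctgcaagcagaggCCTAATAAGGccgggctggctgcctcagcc
Vcl: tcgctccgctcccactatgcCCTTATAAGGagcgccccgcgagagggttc
Actg1: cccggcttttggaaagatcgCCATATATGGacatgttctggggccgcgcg

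Libraries held 13284804 to 21643548 reads assigned to genes. Levels below are in CPM, a gene's reads scaled to a common library size with edgeR's TMM factors, which were 0.716 in the library labelled KO saline replicate 1 and 0.884 to 1.18 in the others. All 10 smooth muscle markers had reads in every library, from 255 to 1171 for Tagln up to 56946 to 221529 for Acta2. Their sum is unweighted, so abundant genes such as Acta2 weigh most in it. Vamp8 itself was at 14.1 to 26.7 CPM in KO AngII libraries and at 24.9 to 31.4 CPM in 3 KO saline libraries, against 52.3 to 60.9 CPM in WT AngII and 45.9 to 57.2 CPM in WT saline. The library labelled KO saline replicate 1 had 53.3 CPM of Vamp8, inside the WT range, so the values of Myocd and Srf that rest on it are also given without it. KO AngII replicate 4 had summed neuron and chromaffin markers of 3740 CPM, against at most 222.7 CPM in any other KO library and 42.2 CPM in any WT library. Its summed smooth muscle markers, 7425 CPM, were the lowest of all libraries. WT saline replicate 2 had summed smooth muscle markers of 10210 CPM, against 25970 to 27610 CPM in the other WT saline libraries. It also had 6693 CPM of brown adipocyte markers and 12430 CPM of general adipocyte markers, against at most 2602 and 8003 CPM in those libraries. Both adipocyte sums were highest of all libraries in the library labelled KO saline replicate 1, at 9584 and 15720 CPM. The part of these sums in the values of Myocd and Srf was not tested. Mitochondrially encoded genes took 10.1 to 24.3% of reads in KO AngII, 27.0 to 32.8% in KO saline, 9.56 to 16.3% in WT AngII and 8.33 to 17.7% in WT saline.

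All 10 regulators passed the expression filter. Per kilobase of exon, the only scale on which they can be ranked, Heyl was the most abundant at 32.2 ± 10.6 CPM per kb (mean ± SD over 16 libraries), followed by Klf4 at 27.8 ± 8.73 and Srf at 22.6 ± 6.66. The ranges of mean ± SD of those 3 overlapped. Within single libraries, however, Heyl was above Srf in all but KO AngII replicate 4 and WT saline replicate 2. The ranges of Gata6 (6.93 ± 2.61 CPM per kb), Myocd (6.68 ± 3.50) and Mef2c (5.68 ± 1.46) overlapped. Mrtfb (4.03 ± 0.813 CPM per kb) and Mrtfa (4.02 ± 0.776) were level with each other, and their ranges overlapped that of Mef2c. Within single libraries Mef2c was above Mrtfb in all but KO AngII replicates 2 and 4. Tcf21 (1.01 ± 0.785 CPM per kb) and Klf5 (0.605 ± 0.304) were the lowest, with overlapping ranges. The order was not the same in every group. In KO saline Klf4 (30.4 ± 6.76 CPM per kb) was above Heyl (25.4 ± 4.47), and Myocd (2.90 ± 1.24) was below Mrtfb (4.39 ± 1.05) and Mrtfa (3.70 ± 0.729). This held in every KO saline library, although the ranges again overlapped (SD, n = 4). The order says nothing of relative protein or of levels within a cell type, because the aortic wall was sequenced whole. Across libraries the highest level over the lowest was 21.9-fold for Tcf21, which rested on 5 to 126 reads a library, 10.3-fold for Myocd, and 1.90-fold for Mrtfa.

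**Figure D1:**
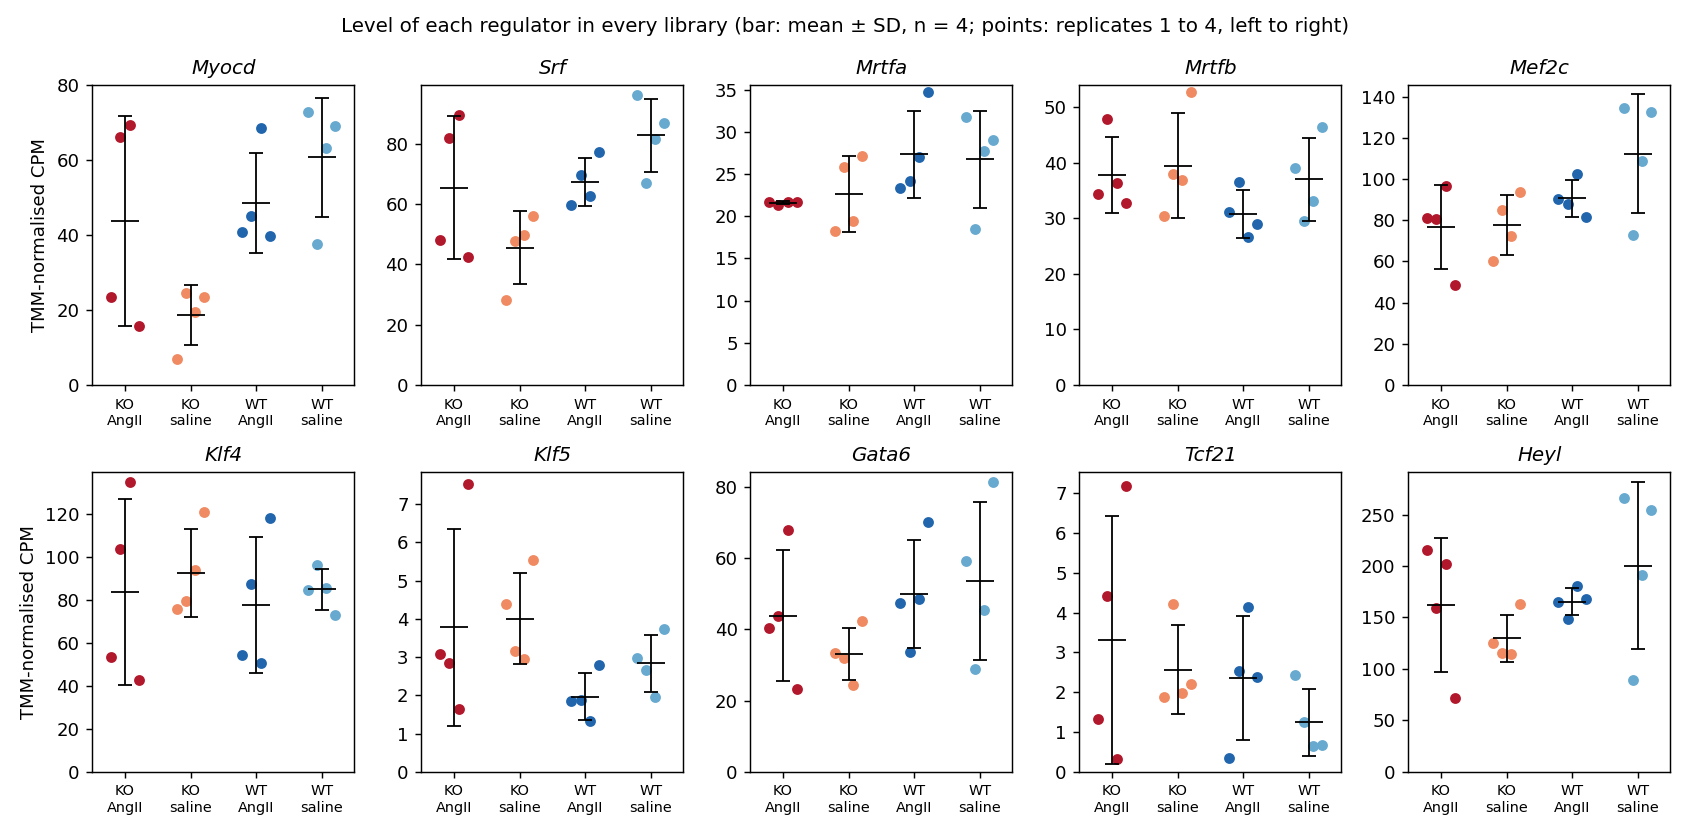
TMM-normalised CPM of each regulator (vertical axis, linear, from 0) in every library of KO AngII, KO saline, WT AngII and WT saline mice; points are replicates 1 to 4 from left to right and bars are mean ± SD (n = 4). Myocd and Srf sit lower in all 4 KO saline libraries than in any WT saline library, and Myocd in KO AngII splits into a high and a low pair.

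Of the Srf coactivators, Myocd (ENSMUSG00000020542) had 23.5, 66.3, 69.3 and 15.6 CPM in the 4 KO AngII libraries and 7.04, 24.4, 19.6 and 23.4 CPM in KO saline. In WT mice it had 40.9, 45.1, 68.4 and 39.8 CPM under AngII and 72.8, 37.7, 63.3 and 69.1 CPM under saline. All KO saline libraries lay below all WT saline libraries, the lowest of them being the library labelled KO saline replicate 1. KO AngII replicates 2 and 3 were at WT levels, while KO AngII replicates 1 and 4 overlapped the KO saline range. Mrtfa (ENSMUSG00000042292) had 21.7, 21.4, 21.7 and 21.7 CPM in KO AngII and 18.3, 25.8, 19.4 and 27.1 CPM in KO saline. It had 23.4, 24.2, 27.1 and 34.7 CPM in WT AngII and 31.7, 18.5, 27.7 and 29.0 CPM in WT saline. The KO AngII libraries were nearly equal and all lay below the lowest WT AngII library, whereas the saline groups overlapped. Mrtfb (ENSMUSG00000009569) averaged 37.8 ± 6.86 CPM in KO AngII, 39.5 ± 9.40 in KO saline, 30.8 ± 4.27 in WT AngII and 37.0 ± 7.45 in WT saline (SD, n = 4 each). No pair of groups was separated in Mrtfb, the coactivator that varied least after Mrtfa.

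Of the MADS box factors, Srf (ENSMUSG00000015605) had 48.0, 82.1, 89.4 and 42.5 CPM in KO AngII and 28.2, 47.9, 49.9 and 56.1 CPM in KO saline. It had 59.8, 69.7, 62.6 and 77.4 CPM in WT AngII and 96.1, 67.1, 81.6 and 86.8 CPM in WT saline. As with Myocd, every KO saline library was below every WT saline library, and the same KO AngII replicates, 2 and 3, were the high ones. Mef2c (ENSMUSG00000005583), which acts upstream of Myocd in the embryo, had 80.9, 80.4, 96.8 and 48.6 CPM in KO AngII and 60.3, 85.1, 72.2 and 93.6 CPM in KO saline. Its levels were 90.4, 87.9, 102 and 81.5 CPM in WT AngII and 135, 72.7, 109 and 133 CPM in WT saline. In WT saline, replicate 2 stood well below the other 3, and it was this library that made the saline groups overlap. The lowest Mef2c level of all was in KO AngII replicate 4, the library with neuron and chromaffin markers. That library also had the lowest sum of smooth muscle markers, 7425 CPM.

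Of the zinc finger factors, Klf4 (ENSMUSG00000003032), which represses contractile genes in cultured smooth muscle and is also made by endothelium, had 53.7, 104, 135 and 42.8 CPM in KO AngII. It had 75.7, 79.6, 94.0 and 121 CPM in KO saline, 54.3, 87.8, 50.9 and 118 CPM in WT AngII, and 84.7, 96.6, 85.6 and 73.2 CPM in WT saline. All 4 groups overlapped, and the AngII groups of both genotypes were spread more widely than the saline groups. Klf5 (ENSMUSG00000005148), known as a growth-promoting factor in injured vessels, had 3.08, 2.85, 1.64 and 7.53 CPM in KO AngII and 4.39, 3.15, 2.95 and 5.53 CPM in KO saline. It had 1.85, 1.87, 1.34 and 2.80 CPM in WT AngII and 2.98, 2.68, 1.95 and 3.74 CPM in WT saline. The highest Klf5 value was in KO AngII replicate 4, and the groups compared overlapped. Gata6 (ENSMUSG00000005836) averaged 43.8 ± 18.3 CPM in KO AngII, 33.0 ± 7.39 in KO saline, 49.9 ± 15.1 in WT AngII and 53.7 ± 22.2 in WT saline (SD, n = 4 each), with overlap throughout.

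Of the basic helix-loop-helix factors, Heyl (ENSMUSG00000032744) had 216, 159, 202 and 71.6 CPM in KO AngII and 126, 115.5, 115 and 163 CPM in KO saline. It had 165, 149, 180.3 and 168 CPM in WT AngII and 266, 89.3, 191 and 254.5 CPM in WT saline. The low values were in KO AngII replicate 4 and WT saline replicate 2, the libraries with the lowest sums of smooth muscle markers. Tcf21 (ENSMUSG00000045680), a mesenchymal factor of fibroblasts and of coronary smooth muscle precursors, had 1.33, 4.43, 0.328 and 7.19 CPM in KO AngII and 1.87, 4.23, 1.97 and 2.20 CPM in KO saline. In WT it had 0.343, 2.54, 4.14 and 2.38 CPM under AngII and 2.44, 1.24, 0.649 and 0.666 CPM under saline. Libraries of one group differed more than the groups did, so Tcf21 gave no ordering of the conditions.

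KO against WT under saline asks how these genes differ between the labelled genotypes without AngII. Myocd was at 18.6 ± 7.99 CPM in KO saline and 60.7 ± 15.9 CPM in WT saline, and Srf at 45.5 ± 12.1 CPM in KO saline and 82.9 ± 12.1 CPM in WT saline (SD, n = 4 each). Neither passed an adjusted p under 0.05 by edgeR's quasi-likelihood test with Benjamini-Hochberg adjustment over 15984 genes: Myocd had a log2 fold change of -1.71 (SE 0.46, adjusted p = 0.0578) and Srf of -0.86 (SE 0.24, adjusted p = 0.0664). Both were separated between the groups, as were 5.94% of all genes in the lower direction. Because whole vessels were sequenced, fewer smooth muscle cells and less RNA of these genes per cell cannot be told apart.

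Over the 10 regulators, edgeR called 0 under saline, against 3.01% of all genes tested. At an unadjusted p under 0.05 it gave 3 (Myocd, Srf and Mef2c), against 21.8% of all genes. DESeq2 called 2 (Myocd, adjusted p = 0.00477, and Srf, adjusted p = 0.0129), against 8.61% of all genes. The voom method of limma with library quality weights called 5, adding Mef2c, Heyl and Gata6, against 20% of all genes. Mef2c had an edgeR log2 fold change of -0.53 (SE 0.22, adjusted p = 0.183), Gata6 of -0.70 (SE 0.33, adjusted p = 0.235) and Heyl of -0.63 (SE 0.33, adjusted p = 0.271). The other 5 had edgeR adjusted p between 0.425 and 0.851, and their differences were -0.24 for Mrtfa, 0.09 for Mrtfb, 0.12 for Klf4, 0.50 for Klf5 and 1.04 for Tcf21 on the log2 scale. The positive signs of Mrtfb and Klf4 turned negative when libraries were scaled by total counts, at -0.23 and -0.18. The median over the 10 was -0.38, and the median over all genes was 0.05.

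The separation of Myocd and Srf had the same sign in all 26 other settings, from -2.01 to -1.43 for Myocd and from -1.17 to -0.69 for Srf. Without the library labelled KO saline replicate 1, Myocd was at -1.47 (edgeR adjusted p = 0.123) and Srf at -0.73 (edgeR adjusted p = 0.136). Without WT saline replicate 2, the library low in smooth muscle markers, edgeR called Myocd (-1.88, adjusted p = 0.0269), Srf (-0.95, adjusted p = 0.0341) and Mef2c (-0.69, adjusted p = 0.0447), while its calls over all genes went up as well, to 1744 against 481 with every library. Without KO AngII replicate 4, which is in neither saline group but enters the estimate of the spread, edgeR called Myocd (adjusted p = 0.0242) and Srf (adjusted p = 0.0340), with 857 calls over all genes. Other measures moved with the same contrast. The summed smooth muscle markers were 11570 to 15370 CPM in KO saline and 10210 to 27610 CPM in WT saline, with medians of 11800 and 26610 CPM in KO saline and WT saline, the mitochondrial share was higher in every KO saline library, and longer genes tended to have lower fold changes (Spearman coefficient -0.276 across 15797 genes, which are not independent replicates). Myocd has 6424 bases of exon and Srf 2893. Summed pericyte markers were 1038 to 1307 CPM in KO saline and 1327 to 2934 CPM in WT saline, without overlap. Summed fibroblast markers did not overlap either, at 6206 to 8694 CPM in KO saline and 9314 to 15740 CPM in WT saline. Of the 10 fibroblast markers 6 were negative and 4 positive (median log2 fold change -0.17). Macrophage markers were negative for 9 of 10 (median -0.26), with sums of 326 to 424 CPM in KO saline and 306 to 639 CPM in WT saline. Of the endothelial markers 9 of 10 were positive (median log2 fold change 0.49), with sums of 1198 to 2534 CPM in KO saline and 1230 to 1516 CPM in WT saline. All 8 tested skeletal muscle markers were positive (median 3.95), and their sum was 691 CPM in KO saline replicate 3 and at most 27.4 CPM in any other library. The tested markers of neuron and chromaffin, Schwann and general adipocyte cells, 8 in each list, were also all positive. The part of these measures in the result was not tested.

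**Figure D2:**
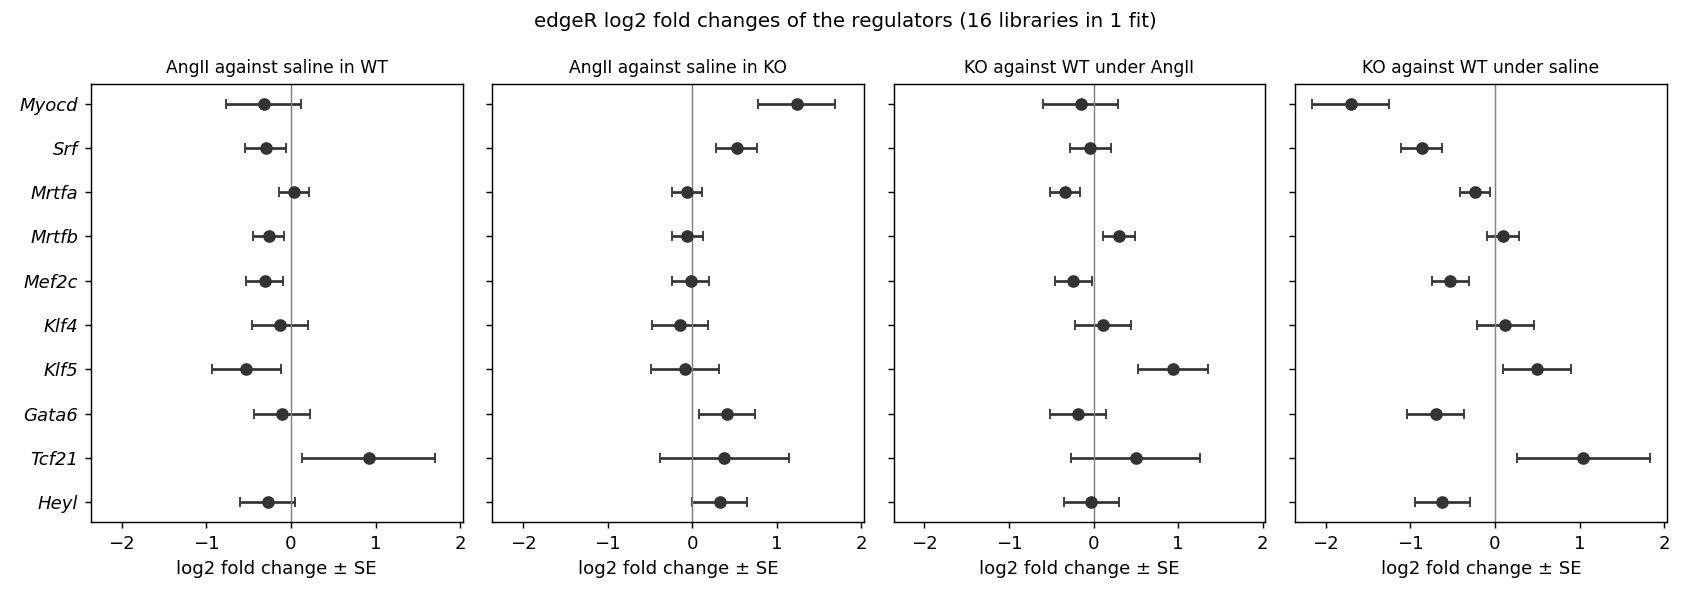
edgeR log2 fold changes ± SE (horizontal axis) of the 10 regulators (rows) for AngII against saline in WT, AngII against saline in KO, KO against WT under AngII and KO against WT under saline, from 1 fit of 16 libraries. Myocd and Srf lie farthest below 0 for KO against WT under saline, at -1.71 and -0.86, and above 0 for AngII against saline in KO, at 1.23 and 0.53; none of the values passed the adjusted threshold.

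AngII against saline in KO mice asks how the hormone relates to these genes in libraries labelled KO. Myocd was at 43.7 ± 28.0 CPM in KO AngII and 18.6 ± 7.99 CPM in KO saline, and Srf at 65.5 ± 23.7 CPM in KO AngII and 45.5 ± 12.1 CPM in KO saline (SD, n = 4 each). The groups overlapped for all 10 regulators, whereas 4.25% of all genes were separated in the higher direction and 3.52% in the lower. Myocd had a log2 fold change of 1.23 (SE 0.45) and Srf of 0.53 (SE 0.24), at edgeR adjusted p = 0.186 and 0.255. edgeR called 0 of the 10, against 0.0501% of all genes, and at an unadjusted p under 0.05 gave 2 (Myocd and Srf), against 19.2% of all genes. DESeq2 called 0, against 4.64% of all genes, and limma voom called 1, Myocd (log2 fold change 1.30, adjusted p = 0.0433), against 3.51%. The other 8 had edgeR adjusted p of at least 0.503 and log2 fold changes between -0.14 (Klf4) and 0.41 (Gata6). Without the library labelled KO saline replicate 1, Myocd was at 0.97 (SE 0.44, edgeR adjusted p = 0.366) and Srf at 0.36 (SE 0.23, edgeR adjusted p = 0.519). The median was 0.15 over the regulators and 0.02 over all genes.

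Several of these small values moved with the setting. For Klf5 the log2 fold change was -0.09 (SE 0.40) with all libraries and -0.67 (SE 0.34, edgeR adjusted p = 0.340) without KO AngII replicate 4. Klf4 was at -0.48 (SE 0.32, edgeR adjusted p = 0.470) without KO AngII replicate 3. Tcf21 was at -0.45 (SE 0.85) without both KO AngII replicate 4 and the library labelled KO saline replicate 1. With total counts Mrtfa was at 0.20, Mrtfb at 0.19 and Mef2c at 0.22. Fold changes were higher for longer genes (Spearman coefficient 0.338 across 15797 genes), and the mitochondrial share was lower in every KO AngII library than in any KO saline library; the part of either in the values of Myocd and Srf was not tested.

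AngII against saline in WT mice gave no regulator a clear difference. The log2 fold changes were -0.32 for Myocd (SE 0.44), -0.30 for Srf (SE 0.24), -0.31 for Mef2c (SE 0.22), -0.28 for Heyl (SE 0.32) and -0.26 for Mrtfb (SE 0.19), and the lowest edgeR adjusted p among the 10 was 0.780. Klf5 was at -0.53 (SE 0.41), Klf4 at -0.13 (SE 0.33) and Gata6 at -0.10 (SE 0.33). Mrtfa at 0.03 (SE 0.18) and Tcf21 at 0.92 (SE 0.79) were the positive ones, although Tcf21 was at 0.12 with limma voom and Mrtfa was negative in 4 of the 26 other settings. edgeR called 0 of the 10, against 0.444% of all genes, and gave 0 at an unadjusted p under 0.05, against 8.8%. DESeq2 called 0, against 1.77%, and limma voom called 0, against 1.59%. With 2 SE on each side, the interval for Myocd ran from -1.21 to 0.57 and that for Srf from -0.78 to 0.18, and both included 0. For 8 of the 10 the sign was negative, as for 52.2% of all genes.

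KO against WT under AngII gave values near 0, of no stable sign, for the genes that were separated under saline. Myocd averaged 43.7 ± 28.0 CPM in KO AngII and 48.6 ± 13.4 CPM in WT AngII, and Srf 65.5 ± 23.7 CPM in KO AngII and 67.4 ± 7.86 CPM in WT AngII (SD, n = 4 each). Their log2 fold changes were -0.15 (SE 0.44, interval of 2 SE from -1.04 to 0.74) and -0.04 (SE 0.24, from -0.52 to 0.44). Each was positive in 5 of the 26 other settings: Myocd ran from -0.49 without KO AngII replicate 3 to 0.20, and Srf from -0.25 without that library to 0.17. Without KO AngII replicate 4 they were at 0.10 and 0.10. Mrtfa was separated, with 21.6 ± 0.163 CPM in KO AngII and 27.4 ± 5.17 CPM in WT AngII (log2 fold change -0.34, SE 0.18, edgeR adjusted p = 0.347), as were 4.8% of all genes in the lower direction. Klf5 averaged 3.78 ± 2.58 CPM in KO AngII and 1.96 ± 0.607 CPM in WT AngII (log2 fold change 0.94, SE 0.41, edgeR adjusted p = 0.240). Without KO AngII replicate 4 the value for Klf5 was 0.34 (SE 0.34), and with limma voom it was 0.46 (SE 0.34). edgeR called 0 of the 10, against 2.03% of all genes, and gave 1 (Klf5) at an unadjusted p under 0.05, against 17.9%. DESeq2 called 0, against 7.77%, and limma voom called 0, against 3.63%.

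The genotype by AngII interaction tests whether the AngII difference was larger in KO than in WT mice. It was 1.56 for Myocd (SE 0.63) and 0.82 for Srf (SE 0.34) on the log2 scale, both at edgeR adjusted p = 0.422. Without the library labelled KO saline replicate 1 it was 1.29 for Myocd (edgeR adjusted p = 0.575) and 0.66 for Srf (edgeR adjusted p = 0.580). edgeR called 0 of the 10, against 0.0188% of all genes, and gave 2 (Myocd and Srf) at an unadjusted p under 0.05, against 11.2%. DESeq2 called 0, against 0.684%, and limma voom called 0, against 1.08%. The lowest adjusted p over the settings was 0.0539 for Myocd and 0.0544 for Srf. The interaction reuses the KO saline and WT saline libraries of the comparison under saline, so it is not a separate observation. Averaged over both genotypes, AngII against saline was 0.46 for Myocd (SE 0.32) and 0.11 for Srf (SE 0.17). edgeR called 0 of the 10, against 1.04% of all genes, and gave 0 at an unadjusted p under 0.05, against 15.1%. DESeq2 called 0, against 4.21%, and limma voom called 0, against 3.43%.

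Ratios of read counts within a library do not depend on how libraries are scaled. Reads of Myocd over those of Srf were 0.368 to 0.808 in KO AngII, 0.249 to 0.510 in KO saline, 0.514 to 1.09 in WT AngII and 0.561 to 0.796 in WT saline. In KO saline, Myocd was therefore lower relative to Srf in all 4 libraries than in any WT saline library. The ratios reuse the reads of the genes compared above and were chosen after their values were seen, so they are not separate observations. How many other pairs of genes would be apart in this way was not counted. Mrtfb and Mrtfa, the coactivators regulated by actin, were higher relative to Srf in KO saline. Mrtfb over Srf was 0.739 to 1.08 in KO saline and 0.405 to 0.535 in WT saline. Mrtfa over Srf was 0.389 to 0.648 in KO saline and 0.276 to 0.340 in WT saline. The edgeR log2 fold change under saline was -0.86 for Srf itself, 0.09 for Mrtfb and -0.24 for Mrtfa, so these ratios follow the lower denominator. Klf4 over Myocd was 3.26 to 10.8 in KO saline and 1.06 to 2.57 in WT saline. It too follows its denominator, with log2 fold changes of 0.12 for Klf4 and -1.71 for Myocd. Under AngII Klf4 over Myocd was 1.57 to 2.74 in KO and 0.743 to 2.98 in WT, and these overlapped. The library labelled KO saline replicate 1 had the extreme value of its group in all 4 of these ratios. Without it KO saline ran from 0.393 to 0.510 for Myocd over Srf, 0.739 to 0.938 for Mrtfb over Srf, 0.389 to 0.539 for Mrtfa over Srf and 3.26 to 5.18 for Klf4 over Myocd, each still apart from WT saline.

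Set against smooth muscle myosin heavy chain (Myh11), a contractile protein found in smooth muscle, Myocd was again separated under saline, with ratios of 0.00488 to 0.0108 in KO saline and 0.0117 to 0.0189 in WT saline. Srf over Myh11 overlapped, at 0.0166 to 0.0212 in KO saline and 0.0147 to 0.0337 in WT saline. Myocd over smooth muscle actin (Acta2) was 0.00119 to 0.00460 in KO saline and 0.00484 to 0.00814 in WT saline, which did not overlap. Without the library labelled KO saline replicate 1, which was again the lowest, KO saline began at 0.00693 for Myocd over Myh11 and at 0.00363 for Myocd over Acta2. Ratios of genes of unequal length are compared here between groups and not with each other, and no test was run on them. Fold changes under saline also went with gene length (Spearman coefficient -0.276), which a ratio of genes of unequal length does not remove. The part of length in the ratios was not tested.

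**Figure D3:**
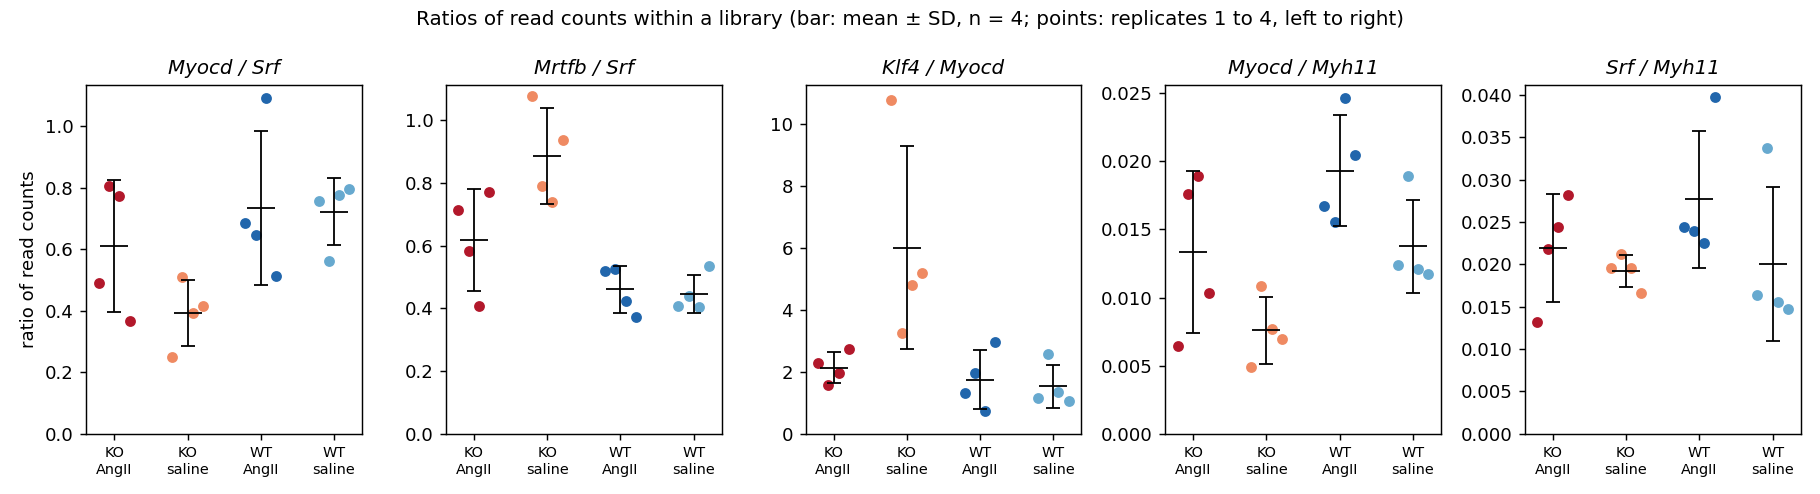
Ratios of read counts within a library (vertical axes, linear, from 0) for Myocd over Srf, Mrtfb over Srf, Klf4 over Myocd, Myocd over Myh11 and Srf over Myh11 in KO AngII, KO saline, WT AngII and WT saline; points are replicates 1 to 4 from left to right and bars are mean ± SD (n = 4). KO saline and WT saline are apart in the first 4 panels, such as 0.739 to 1.08 in KO saline and 0.405 to 0.535 in WT saline for Mrtfb over Srf, and overlap in the last.

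Across all 16 libraries the regulators differed in how closely they followed the smooth muscle markers. Pearson's r between log2 CPM and the log2 sum of 10 smooth muscle markers was 0.924 for Heyl (Spearman's coefficient 0.891), 0.904 for Mef2c (Spearman 0.871), 0.785 for Gata6 (Spearman 0.771), 0.783 for Myocd (Spearman 0.853) and 0.728 for Srf (Spearman 0.741). Permutation tests shuffled all 16 libraries without regard to group, so their p-values also take in differences between groups. For these 5, adjusted over the 10 relations, the tests gave p of at most 0.00238 for r and at most 0.0029 for Spearman's coefficient. Deviations from group means were then pooled over the 4 groups. Their r was 0.920 for Heyl, 0.910 for Mef2c, 0.734 for Gata6, 0.725 for Myocd and 0.611 for Srf. It was 0.488 for Mrtfb, 0.478 for Mrtfa and 0.300 for Klf4. The pooled values do not show the relation inside each group. In WT AngII, replicate 4 had the lowest marker sum (14990 CPM). Of its group it had the lowest Myocd (39.8 CPM) and Mef2c (81.5 CPM) but the highest Srf (77.4 CPM) and Gata6 (70.1 CPM), with Heyl between (168 CPM). Without the 2 libraries farthest from the median marker sum r was 0.866 for Heyl, 0.828 for Mef2c, 0.742 for Myocd, 0.712 for Gata6 and 0.653 for Srf. Klf4 had r = 0.206 (Spearman -0.0147) and Mrtfb r = 0.266 (Spearman 0.282), at adjusted permutation p of 0.441 and 0.353 for r. Klf5 was negative at r = -0.537 (adjusted permutation p = 0.0434), but its Spearman coefficient of -0.388 had an adjusted permutation p of 0.195. Mrtfa had r = 0.553 (adjusted permutation p = 0.0433; Spearman 0.541, adjusted 0.0528), and Tcf21 had r = -0.414 (adjusted permutation p = 0.139). The libraries share depth, scaling and composition, so these relations describe the samples. How many of all genes follow the marker sum as closely was not counted.

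**Figure D4:**
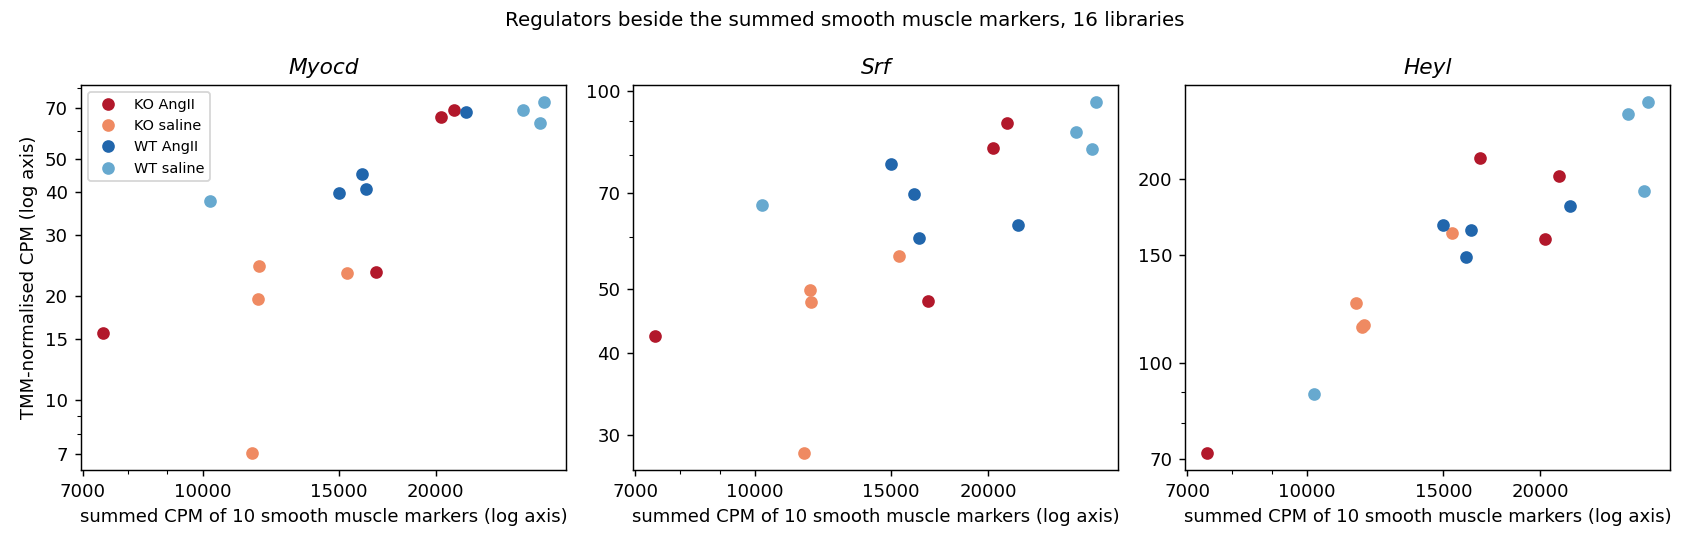
TMM-normalised CPM of Myocd, Srf and Heyl (vertical axes, log) against the summed CPM of 10 smooth muscle markers (horizontal axis, log) in 16 libraries coloured by group, KO AngII, KO saline, WT AngII and WT saline. Heyl follows the marker sum most closely (r = 0.924), and WT saline replicate 2, at a marker sum of 10210 CPM, has more Myocd (37.7 CPM) than the 4 KO saline libraries at 11570 to 15370 CPM.

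Among the 45 pairs of regulators, Myocd and Srf co-varied most closely, with r = 0.946 (Spearman 0.909, permutation p = 1e-05, the smallest that 100000 resamples can give, and 0.00045 after adjustment). Their r was 0.904 as deviations from group means and 0.881 without the 2 libraries farthest from the median of Myocd. Mef2c with Heyl (r = 0.863) and Gata6 with Heyl (r = 0.843) came next, with adjusted permutation p of 0.00045 and 0.0006. In all, 12 pairs had an adjusted permutation p under 0.05, of which 11 were positive and 1 was Myocd with Klf5 (r = -0.639, Spearman -0.574, adjusted permutation p = 0.0292 for r and 0.0748 for Spearman's coefficient). The negative relation of Myocd and Klf5 weakened to r = -0.492 without the 2 libraries farthest from the median of Myocd. Klf4, Mrtfb and Tcf21 were in none of the 12 pairs. As deviations from group means, however, Srf had r = 0.762 with Klf4 and 0.654 with Mrtfb, above the 0.526 of Myocd with Gata6 and the 0.538 of Myocd with Heyl, which were among the 12.

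**Figure D5:**
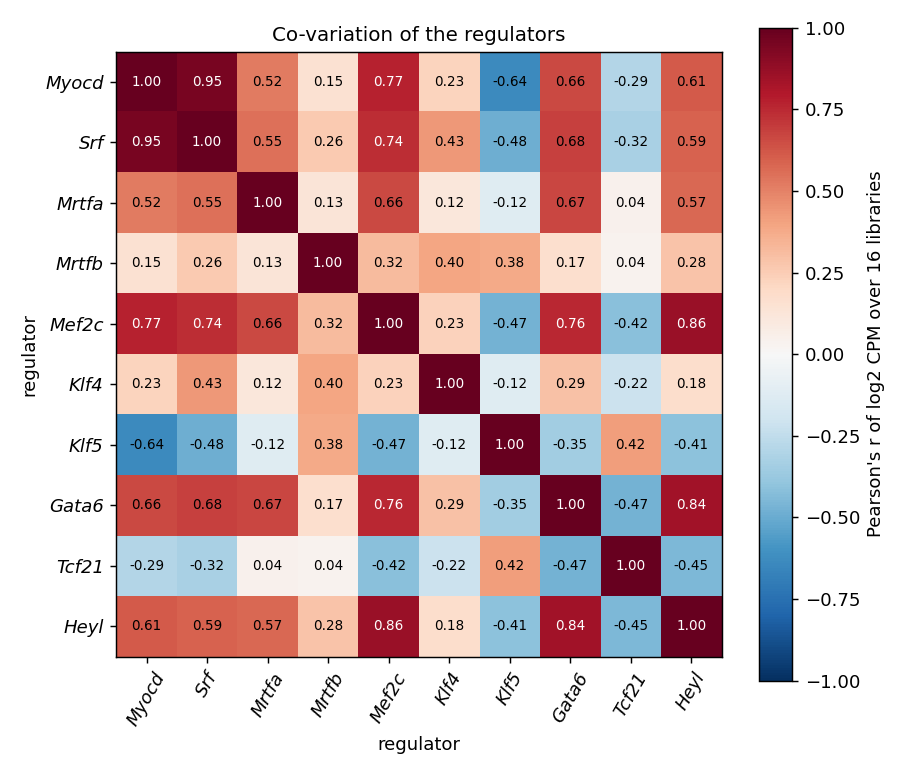
Pearson's r of log2 CPM over 16 libraries for every pair of the 10 regulators, printed in each cell and coloured from blue (-1) to red (1). Myocd with Srf is the highest at 0.95 and Myocd with Klf5 the lowest at -0.64.

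The genes of the whole table whose log2 CPM was most like each regulator over the 16 libraries were ranked by Pearson's r. Those nearest to Srf were Maml1 (0.961), a coactivator of Notch, Brd1 (0.953), a chromatin reader, and Myocd itself (0.946). Those nearest to Myocd were Pik3ca (0.957), a catalytic subunit of phosphoinositide 3-kinase, Cnksr3 (0.957) and Olfr1033 (0.952). Klf4 was nearest to Rela (0.872), a subunit of NF-kappaB, Klf2 (0.869), a factor induced by flow in endothelium, and Rhob (0.802). Mef2c was nearest to Ntn1 (0.951), Heyl to Tnfrsf11a (0.943), Gata6 to Foxc2 (0.934), Mrtfa to Sdc2 (0.896), Klf5 to Ypel1 (0.879), Mrtfb to Mill2 (0.844) and Tcf21 to Cit (0.820). The last 2 were the least closely matched of the 10.

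The contractile targets of Srf were the largest of the lists read around the regulators, and 10 of the 20 are also the smooth muscle markers above. edgeR called 0 of the 20 in each of the 6 comparisons. In KO against WT under saline 19 of 20 were negative, with a median log2 fold change of -0.82 beside 0.05 over all genes, and 13 had an unadjusted edgeR p under 0.05, against 21.8% of all genes. DESeq2 called 5, against 8.61% of all genes, limma voom 16, against 20%, and edgeR on total counts 12, with 2369 calls over all genes; the calls in the list were all lower. The farthest were Itga8, an integrin subunit, at 588 ± 35.3 CPM in KO saline and 1612 ± 635 CPM in WT saline (log2 fold change -1.45, SE 0.41, edgeR adjusted p = 0.0649), and Jph2, a junction protein of muscle membranes, at -1.10 (SE 0.31, edgeR adjusted p = 0.0678). Without the library labelled KO saline replicate 1 the median was -0.72 with 19 of 20 negative, and edgeR called 0; without WT saline replicate 2 the median was -1.05 and edgeR called 11, with 1744 calls over all genes. It called 4 without KO AngII replicate 4, with 857 over all genes, and 1 without KO AngII replicate 2, with 332; both libraries are in neither saline group.

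In AngII against saline in KO, 19 of the 20 contractile targets were positive (median 0.36 beside 0.02 over all genes, 4 with an unadjusted p under 0.05, a share close to the 19.2% of all genes), led by the smooth muscle actin Actg2 at 1.58 (SE 0.37, edgeR adjusted p = 0.106). DESeq2 called 1 higher, against 4.64% of all genes, and limma voom 4, against 3.51%. Without the library labelled KO saline replicate 1 the median was 0.26 with 18 of 20 positive. In AngII against saline in WT, 2 of 20 were positive (median -0.32 beside -0.01), with Myh11 at -0.91 (SE 0.37, edgeR adjusted p = 0.451). These comparisons share no libraries with each other, but the KO saline and WT saline groups also enter the comparison under saline.

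Of 14 tested cytoskeletal and immediate early targets of Srf, 8 were negative in KO against WT under saline (median -0.22), and edgeR called 0 in every comparison. Junb, a subunit of the AP-1 factor, was at 1.03 (SE 0.37, edgeR adjusted p = 0.139) and the adhesion protein Zyx at -0.70 (SE 0.30, edgeR adjusted p = 0.190) under saline. Among the 15 ternary complex factors and cofactors of Srf, 9 were negative under saline (median -0.32) and edgeR called 0; the deacetylase Hdac9 was at -1.09 (SE 0.31, edgeR adjusted p = 0.0664) and the LIM protein Csrp2 at -1.08 (SE 0.33, edgeR adjusted p = 0.0808).

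Relatives of the other regulators gave the only 2 genes that edgeR called in the pathway lists, both in KO against WT under saline. Klf10, a Krüppel-like factor induced by TGF-beta, was higher at 57.2 ± 15.6 CPM in KO saline and 29.6 ± 8.01 CPM in WT saline (log2 fold change 0.95, SE 0.22, edgeR adjusted p = 0.0339), in a direction in which 1.23% of all genes were called. It had 80.5, 51.3, 46.7 and 50.3 CPM in KO saline and 24.4, 41.1, 28.8 and 23.9 CPM in WT saline, with no overlap, as for 5.17% of all genes in that direction. It was 1 of 13 tested family members, whose median was -0.11. Notch2, a receptor upstream of Heyl, was lower at 50.5 ± 13.2 CPM in KO saline and 99.8 ± 32.9 CPM in WT saline (log2 fold change -0.98, SE 0.24, edgeR adjusted p = 0.0407), in a direction in which 1.78% were called, and KO saline replicates 3 and 4 overlapped WT saline replicate 2. Of the 15 Notch and HEY genes tested, 10 were positive under saline (median 0.45). The endothelial markers were also mostly positive there, at a median of 0.49, and their part in the values of this list was not tested. Klf10 passed in 17 and Notch2 in 11 of the 26 other settings. Klf10 lost its call without the library labelled KO saline replicate 1, without KO saline replicate 2 or 4 or without WT saline replicate 1, 3 or 4, at 0.70 to 1.01 on the log2 scale. Notch2 kept its call without KO AngII replicate 1, 3 or 4 or WT saline replicate 2 and lost it without any of the other 12 libraries, at -1.10 to -0.81.

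Of 8 tested MEF2 genes and class IIa deacetylases, 7 were negative under saline (median -0.50) and edgeR called 0, with Mef2a at -0.66 (SE 0.19, edgeR adjusted p = 0.0670). The GATA list had 4 tested genes with 0 called by edgeR, and Gata3 was at 2.44 (SE 0.82, edgeR adjusted p = 0.118) in KO against WT under AngII, with 0.656 to 17.2 CPM in KO AngII and 0.687 to 1.34 CPM in WT AngII. The SD in KO AngII, 7.80 CPM, was above the mean of 5.86 CPM. Of 11 partners and relatives of Tcf21 edgeR called 0, and the mesenchymal factor Twist1 was at -0.63 (SE 0.19, edgeR adjusted p = 0.0939) in KO against WT under AngII. Summed fibroblast markers in that comparison were 6431 to 9638 CPM in KO AngII and 11410 to 27210 CPM in WT AngII, and their part in the values of Twist1 and Tcf21 was not tested.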

How the data were processed

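Polyadenylated RNA of 16 aortae was sequenced as read pairs, per the labels. The authors deposited unnormalized integer counts of reads for each gene. HISAT2 2.0.5, DESeq2 1.20.0 and featureCounts 1.5.0-p3 are named in the submitters' processing notes, with GRCm39 (mm39) as the build. The sources used here name no annotation release and do not say how strand and multi-mapped reads were handled. Genes with no symbol numbered 2725, exactly those with 0 reads in all WT libraries, and a name table named 2502 of them, so a counting difference between genotypes cannot be told apart from genotype; each of the 10 regulators had a symbol.

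Groups came from the sample titles. The test was edgeR 4.0.16 (R 4.3.3), with its expression filter (15984 genes kept, 13711 removed), TMM scaling, 1 fit of 16 libraries with a mean per group, the quasi-likelihood F test and Benjamini-Hochberg adjustment over all genes kept, two-sided. The script was tested on simulated data. No libraries were duplicates. Levels per kilobase used exon lengths from GENCODE M21 (GRCm38). Alternatives were RLE scaling, total counts, no filter, a filter of 1 CPM in 4 libraries, DESeq2 1.42.0, limma 3.58.1 voom, a replicate block, only the groups compared, each library left out, KO AngII replicate 4 left out together with the library labelled KO saline replicate 1 and, added after seeing the data, no mitochondrially encoded genes. Permutation tests of correlations were two-sided and shuffled libraries without regard to group. Named list genes were up to 4 called members of each list, or the 2 with the lowest p where none was called; which of them the text prints, and the ratios, were chosen after their values were seen. The regulators and lists were chosen with earlier results of these data known.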

Additional observations from a re-analysis of the deposited data

Results flagged for a closer look

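Mrtfa in KO AngII replicate 2, at 21.4 CPM, lay far from the other 3 libraries of its group relative to the group's range, because those 3 were at 21.7 CPM and the whole group had an SD of 0.163 CPM. It was the single value of this kind among 40 groups of 4 libraries (10 regulators in 4 groups), where chance gives about 1 in 20.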

How the results depend on the processing

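Of 1540 values of the regulators under other settings, 1499 kept their side of the threshold within 1 SE, 22 moved by more and 19 became called. The main fit called 0 regulators, so there was no call that could be lost or change sign. For KO against WT under saline, the number of regulators called was 3 with total counts and no scaling factor, 2 with DESeq2, 5 with limma voom, 1 without both KO AngII replicate 4 and the library labelled KO saline replicate 1 (Myocd, adjusted p = 0.0464), 2 without mitochondrially encoded genes, and 0 to 3 when each library was left out in turn. For AngII against saline in KO it was 1 with limma voom. With the replicate block it was 0 in every comparison, and edgeR gave Myocd -1.83 (adjusted p = 0.0570) and Srf -0.91 (adjusted p = 0.0772) under saline. Same-numbered libraries correlated at -0.423 to 0.442 between groups. Libraries of unlike number were not compared, so these values cannot decide whether the numbers pair the samples. Every other count was 0. Total counts moved the median of all genes by -0.33 for KO against WT under saline, 0.28 for AngII against saline in KO and 0.35 for the interaction. The number of all genes called for KO against WT under saline was 481 by edgeR, 2369 with total counts, 1362 with DESeq2 and 3197 with limma voom; the cause was not tested. The lowest read counts, 5 for Tcf21 and 20 for Klf5, limit those genes most.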
